A study of Mus musculus with 24 samples.

Results

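Fully grown mouse oocytes without CNOT6L were compared with wild-type (WT) oocytes before meiosis resumes, at the germinal vesicle (GV) stage. Every gene whose mean reached 1 FPKM in either group was taken; FPKM counts fragments per length of transcript and per total of mapped fragments. These were 10176 of the 23235 genes listed, measured in 2 Cnot6l-/- and 2 WT libraries out of 24 in the series. Both groups were C57BL/6 mice of postnatal day 21, with GV oocytes collected 48 h after PMSG, a hormone that stimulates follicle growth. The knockout allele, and whether the libraries of a group came from separate animals, are not described in the labels. The p-values therefore speak for the spread between libraries, estimated over all 24, and not for a known spread between animals. The oocytes per library are given as 100 in the extraction protocol and as 2 in the description of the series. Another GV group, labelled Btg4-/-, and the MI, MII and zygote libraries of Cnot6l-/- and WT were used for comparison only. Leng8 at 0.97 FPKM or more in both groups lay just outside the threshold of 1 FPKM, as did Rhobtb3 (0.995 in WT), while Anks1b and Atxn10 (1 in WT) lay just inside.

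CCR4-NOT is the main cytoplasmic deadenylase: it shortens the poly(A) tails of mRNA, which lowers translation and leads to decay. CNOT6L is one of its catalytic subunits, with CNOT6 as its close paralog and CNOT7 and CNOT8 as the catalytic subunits of the other family. A growing oocyte makes and stores mRNA, stops transcription when it is fully grown, and degrades much of the store only after meiosis resumes. GV oocytes are therefore the stage before the main wave of maternal mRNA decay.

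Cnot6l lies on the minus strand of chromosome 5 (96505816 to 96591009 in mm9). Its transcript was at 73.9 and 24.1 FPKM in the WT libraries and at 5.92 and 4.3 in the Cnot6l-/- libraries. Both knockout libraries lay below both WT libraries, although the WT libraries lay far apart. The log2 difference, Cnot6l-/- minus WT on the log2(FPKM + 1) scale used throughout, was -2.84 ± 0.65 (SE; limma, Benjamini-Hochberg adjusted p = 0.0073). Without WT replicate 1 it was -2.05 (adjusted p = 0.12), without Cnot6l-/- replicate 2 it was -2.65 (adjusted p = 0.069), and with only the 4 libraries compared its adjusted p was 0.081. Cnot6, the paralog, was at 9.36 and 3.49 FPKM in WT and 3.58 and 3.21 in Cnot6l-/- (log2 difference -0.64, adjusted p = 0.54). Cnot7 was at 163 and 99.6 against 140 and 73.8 FPKM (-0.32, adjusted p = 0.91), and Cnot8 at 76.3 and 69.5 against 66.5 and 67.3 (-0.12, adjusted p = 0.93). The adaptor gene Btg4 was among the most abundant, at 2490 and 2120 FPKM in WT and 2287 and 2351 in Cnot6l-/- (0.01, adjusted p = 1).

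Summed FPKM was 543648 and 451732 in WT and 469619 and 495344 in Cnot6l-/-, a ratio of 0.97 (exact two-sided permutation p = 1; 2 against 2 libraries cannot go below 0.33). The oocyte markers Zp3 (2159 and 2448 against 2084 and 2717 FPKM), Gdf9 and Dppa3 were high in all 4 libraries. The WT libraries agreed less with each other than the knockout libraries did: 937 of the genes (9.21%) lay more than 1 log2 unit apart between the WT libraries and 237 (2.33%) between the Cnot6l-/- libraries. WT replicate 1 exceeded replicate 2 by a median of 0.29, from 0.09 in the 1985 genes with the shortest transcripts to 0.56 in the 1984 with the longest. Between the same ends the median Cnot6l-/- minus WT difference went from 0.08 to -0.15, and the part of transcript length in it was not tested.

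Over all 10176 genes the median log2 difference at GV was -0.02, and a minority of genes differed in either direction. By limma at an adjusted p under 0.05, 637 genes were higher and 317 lower in Cnot6l-/- oocytes; over all 10884 genes tested the shares were 6.06% higher and 3.02% lower. An unadjusted p under 0.05 was reached by 1910 of the 10176. Without WT replicate 1 the counts over all genes tested were 639 higher and 260 lower, and without WT replicate 2 they were 482 and 438, against 660 and 329 with all libraries. With only the 4 libraries compared, 116 were higher and 88 lower. The libraries of the 2 groups did not overlap for 953 of the 954 genes called, and did not overlap for 36.6% of all genes tested. The median size of the log2 difference was 1.08 among the higher and 1.10 among the lower genes. It was at least 2 for 76 higher and 58 lower genes, and at least 3 for 22 and 26.

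Abundant maternal transcripts were seldom among them. Of the 520 genes at 200 FPKM or more in the higher group, 6 were called (1.15%), against 221 of 1603 (13.8%) at 1 to 2 FPKM. The choice of genes adds to this, since a low gene could enter through the group where it was high: of genes at 1 FPKM in WT only 169 of 486 were called, of those in Cnot6l-/- only 257 of 601, and of the 9089 in both groups 528 (5.81%). The 6 abundant genes were named after their values were seen. Tmem14c, a mitochondrial membrane protein gene, was at 341 and 227 FPKM in WT and 935 and 1004 in Cnot6l-/- (adjusted p = 0.0019). Upp1, the uridine phosphorylase gene, was at 86.4 and 128 against 291 and 334 (log2 difference 1.56 ± 0.27 SE, adjusted p = 0.00086). Aurkc, the meiotic Aurora kinase gene, and D16Ertd519e were the other 2 that were higher. Ggct, the γ-glutamylcyclotransferase gene, was at 709.8 and 536 in WT against 209 and 191 (-1.62 ± 0.43, adjusted p = 0.021), and the glutathione transferase gene Gsta4 was at 316 and 302 against 104 and 133 (-1.39 ± 0.36, adjusted p = 0.018). In each of these genes the 2 knockout libraries lay on the same side of both WT libraries.

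**Figure D1:**
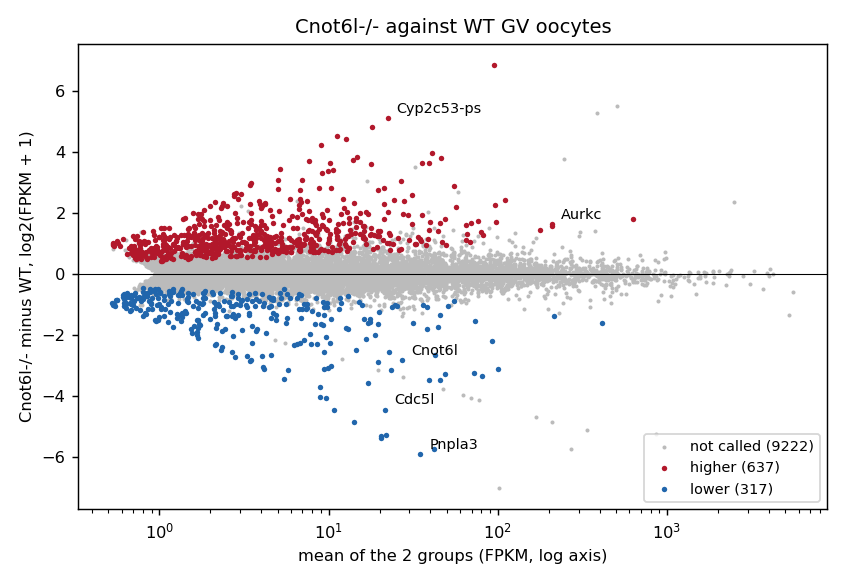
Each point is 1 of the 10176 genes: the x axis is the mean of the 2 groups in FPKM (log axis) and the y axis the log2(FPKM + 1) difference, Cnot6l-/- minus WT. The 637 higher genes (red) and 317 lower genes (blue) lie mostly at low levels, and Pnpla3 lies lowest of the called genes at -5.92; the grey points more than 3 units from 0 are small RNA genes (Mir and Snora symbols) whose libraries differed within groups.

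Some transcripts were close to absent in 1 of the 2 genotypes compared. By a rule chosen after the values were seen, 17 called genes described here had under 0.5 FPKM in both libraries of 1 genotype and a mean of at least 10 in the other. Of these, 10 were found in WT and 7 in Cnot6l-/- oocytes. Pnpla3 (chromosome 15, 83998246 to 84019951), a lipid droplet protein with acyl hydrolase activity, was at 72.4 and 66.4 FPKM in WT and 0.11 and 0.21 in Cnot6l-/- (log2 difference -5.92 ± 0.28 SE, adjusted p = 1.6e-10). The serine/threonine kinase gene Stk32a was at 46.5 and 34.8 against 0 and 0.06 FPKM (-5.32 ± 0.31, adjusted p = 3.1e-09). Manba, the lysosomal β-mannosidase gene, was at 20.3 and 17.9 against 0.16 and 0.22 (-4.08 ± 0.28, adjusted p = 2.4e-08). Gsto2, an omega-class glutathione transferase gene, was at 19.3 and 15.7 against 0.36 and 0.47 (-3.70 ± 0.25, adjusted p = 2.3e-08). The separation of the libraries in these genes follows from the rule that chose them.

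Genes that encode secreted or specialised proteins were also in this group. Bfsp1, which encodes the lens filament protein filensin, was at 19.5 and 23.8 FPKM in WT and 0.03 and 0 in Cnot6l-/- (-4.47 ± 0.19, adjusted p = 1.1e-10). Btn1a1, a butyrophilin of milk fat, was at 13.9 and 7.81 against 0.04 and 0.03 (-3.47 ± 0.18, adjusted p = 7.7e-10). Dcpp1, a secreted demilune cell and parotid protein, was at 43.6 and 38.3 in WT and listed at 0 in both knockout libraries (adjusted p = 6.7e-07). Dcpp2 was at 51.8 and 34.8 against 0 and 0.22 FPKM, whereas the neighbouring copy Dcpp3 was higher in Cnot6l-/-, at 21.8 and 13.4 against 6.9 and 3.27 (1.64, adjusted p = 0.00065). These copies are near-identical, and reads could be split between them in the counting, so the level of each copy is uncertain. The remaining 2 were Agpat9, a lipid gene, and the predicted locus 4930524B15Rik.

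The 7 genes found in Cnot6l-/- but not in WT oocytes included a P450 pseudogene, a defensin, an olfactory receptor and a receptor phosphatase. Cyp2c53-ps (chromosome 19, 39303744 to 39349227) was at 0.47 and 0.12 FPKM in WT and 55.4 and 33.4 in Cnot6l-/- (5.10 ± 0.21, adjusted p = 7.4e-11); reads of other Cyp2c genes could be counted there. Iqcf1, whose protein carries a calmodulin-binding IQ motif, was listed at 0 in both WT libraries and at 25 and 19.5 in Cnot6l-/- (adjusted p = 6.4e-08). The β-defensin gene Defb8 was likewise listed at 0 in WT and at 20.7 and 15.4 in Cnot6l-/- (adjusted p = 7.1e-10). The olfactory receptor gene Olfr878 was at 0.09 and 0.32 against 19.4 and 10.8 (3.69 ± 0.25, adjusted p = 2.4e-08). Ptpro, a receptor-type tyrosine phosphatase gene, was at 0.09 and 0.01 against 9.97 and 10.6 (3.42 ± 0.14, adjusted p = 7.4e-11). The other 2 were the predicted loci E330012B07Rik and 7420700N18Rik.

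**Figure D2:**
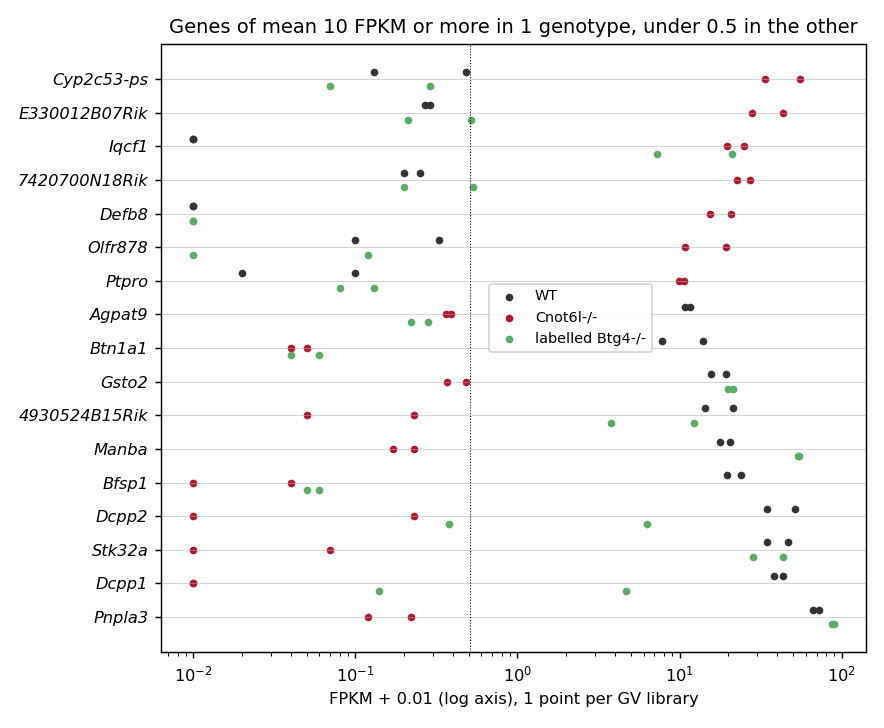
FPKM + 0.01 on a log axis for the 17 genes found in 1 of WT and Cnot6l-/-, 1 point per GV library, in WT (black), Cnot6l-/- (red) and the group labelled Btg4-/- (green); the dotted line is at 0.5 FPKM. Black and red points are far apart in every gene by the rule that chose the genes. The green points lie with WT for Pnpla3 (86.8 and 90.1 FPKM) and with Cnot6l-/- for Bfsp1 (0.05 and 0.04).

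The genes that were called had fewer CpG dinucleotides before their start than the others. The 250 bases upstream of each gene's outermost start in the deposited table were read from the mm9 genome, on the gene's strand. They held a median of 8 CG pairs for the higher genes, 11 for the lower genes and 16 for the genes not called, against 9 for all genes listed (middle range 3 to 19). These counts are the same on both strands. Among genes of 1 to 5 FPKM in the higher group the medians were 7, 10 and 16, and at 20 FPKM or more they were 8, 9 and 16. Of the 1449 genes with 0 to 4 CG, 15.3% were higher and 6% lower, against 2.83% and 1.75% of the 1201 genes with 30 or more. The share called in either direction went down with each step of CG content and with each step of level. These shares are a description, and the part of level or transcript length in them was not tested.

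**Figure D3:**
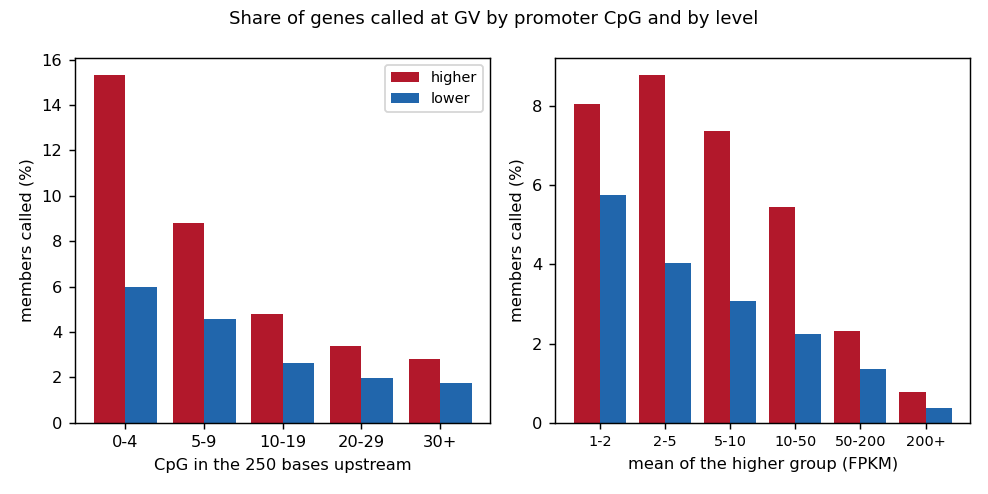
Bars give the percent of genes called higher (red) or lower (blue) in Cnot6l-/- oocytes, by the number of CG in the 250 upstream bases (left) and by the mean of the higher group in FPKM (right). The share higher goes from 15.3% at 0 to 4 CG to 2.83% at 30 or more.

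Upstream windows of 5 genes show this range and are printed 5′ to 3′ with each CG in capitals. The first 3 belong to genes found in 1 genotype: Cyp2c53-ps with 0 CG (chr19:39303494-39303743), Bfsp1 with 2 (chr2:143688910-143689159) and Pnpla3 with 11 (chr15:83997996-83998245). Cdc5l has 19 (chr17:45570657-45570906), and the targeted gene itself, Cnot6l, has 37 (chr5:96591010-96591259). The windows of Cdc5l, Bfsp1 and Cnot6l are read from the minus strand and the others from the plus strand.
Cyp2c53-ps: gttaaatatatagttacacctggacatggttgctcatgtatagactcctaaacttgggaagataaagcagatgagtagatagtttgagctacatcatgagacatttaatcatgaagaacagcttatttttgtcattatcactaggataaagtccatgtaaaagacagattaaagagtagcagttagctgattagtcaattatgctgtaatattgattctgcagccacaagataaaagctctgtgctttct
Bfsp1: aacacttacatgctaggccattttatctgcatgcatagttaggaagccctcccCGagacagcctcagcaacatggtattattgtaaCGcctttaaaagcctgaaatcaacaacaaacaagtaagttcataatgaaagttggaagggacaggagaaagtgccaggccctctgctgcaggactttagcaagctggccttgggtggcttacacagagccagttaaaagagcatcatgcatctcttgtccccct
Pnpla3: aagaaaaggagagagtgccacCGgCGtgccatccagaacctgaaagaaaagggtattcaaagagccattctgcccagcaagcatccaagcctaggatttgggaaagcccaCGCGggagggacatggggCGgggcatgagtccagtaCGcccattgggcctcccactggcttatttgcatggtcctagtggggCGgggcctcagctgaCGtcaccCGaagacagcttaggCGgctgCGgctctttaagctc
Cdc5l: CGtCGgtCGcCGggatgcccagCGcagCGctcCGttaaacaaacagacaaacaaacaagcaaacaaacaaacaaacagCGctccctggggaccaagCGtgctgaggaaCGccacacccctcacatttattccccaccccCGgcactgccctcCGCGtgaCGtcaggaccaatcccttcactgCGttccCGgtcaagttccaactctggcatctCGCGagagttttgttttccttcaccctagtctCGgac
Cnot6l: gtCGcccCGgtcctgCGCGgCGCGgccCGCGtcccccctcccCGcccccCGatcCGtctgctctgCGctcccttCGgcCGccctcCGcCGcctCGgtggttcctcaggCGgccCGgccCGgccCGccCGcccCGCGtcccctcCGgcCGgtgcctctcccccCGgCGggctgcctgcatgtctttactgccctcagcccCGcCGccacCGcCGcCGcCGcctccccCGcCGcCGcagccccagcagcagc
Cyp2c53-ps thus had no CG at all, Pnpla3 had the median number of the lower genes, and Cdc5l had more than the median of the genes not called.

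Further genes with large losses encoded splicing, meiotic recombination and mitochondrial proteins. Cdc5l, a core component of the Prp19 splicing complex, was at 43.5 and 40.9 FPKM in WT and 0.64 and 1.34 in Cnot6l-/- (-4.46 ± 0.32, adjusted p = 5.1e-08). Ccnb1ip1, whose product HEI10 acts at meiotic crossovers, was at 34.4 and 30.6 against 2.35 and 1.36 (-3.57 ± 0.43, adjusted p = 1.9e-05). Hormad1, of the meiotic chromosome axis, was at 18.1 and 19.2 against 1.4 and 1.16 (-3.11 ± 0.51, adjusted p = 0.00047). Fam54a, a mitochondrial fission regulator gene, was at 88 and 80.3 against 9.06 and 4.71 (-3.49 ± 0.71, adjusted p = 0.0032; 0.05, at the threshold, without Cnot6l-/- replicate 2). Ccdc109b, which encodes the inhibitory subunit of the mitochondrial calcium uniporter, was at 179 and 182 against 20 and 19.8 (-3.12 ± 0.30, adjusted p = 1.5e-06). The WT and knockout libraries were well separated in all 5 genes, but these were named for their large differences, so the separation is a description.

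Among genes with large gains were enzymes and regulators of several kinds. Atpbd4, an enzyme gene of diphthamide synthesis, was at 6.41 and 3.75 FPKM in WT and 114 and 59.6 in Cnot6l-/- (3.82 ± 0.64, adjusted p = 0.00058). The phosphoinositide phosphatase gene Inpp4a was at 2.12 and 1.48 against 17.8 and 19.7 (2.83 ± 0.25, adjusted p = 4.6e-07). Per3, a circadian clock gene, was at 11.2 and 5.63 against 45.3 and 62.3 (2.59 ± 0.38, adjusted p = 0.00013). Arid5b, a chromatin regulator gene, was at 4.78 and 4.11 against 34.5 and 41.1 (2.83 ± 0.57, adjusted p = 0.0028). Stk36, Fbxo16, Fam57a, Lyplal1, Zfp708, Defb41, Ocm, Il1f9 and Gng10 were higher by 2.46 to 3.64 on the log2 scale. That their libraries did not overlap was a condition of their choice. The largest called difference of all was that of the predicted gene Gm13103, at 1.01 and 0.23 FPKM against 244 and 133 (6.85 ± 0.69, adjusted p = 2.4e-06).

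The group labelled Btg4-/-, measured at the same stage, lay near the Cnot6l-/- level for some of these genes and near the WT level for others. Some genes lay at neither level: Manba was above WT there (difference from WT 1.46, limma adjusted p = 0.0043). Over all genes tested, Cnot6l-/- oocytes were higher than this group for 5.85% and lower for 12.4%. BTG4 is an adaptor that recruits CCR4-NOT to mRNA; the Btg4 transcript was at 1641 and 2515 FPKM in the group labelled Btg4-/-, which overlapped WT. Pnpla3 was at 86.8 and 90.1 FPKM there, Manba at 54.7 and 53.5 and Cdc5l at 48.7 and 41.4, and Cnot6l-/- was lower in each (log2 differences -6.27, -5.53 and -4.55; adjusted p = 1e-10, 6.5e-10 and 3.8e-08). Cyp2c53-ps was at 0.06 and 0.28, Ptpro at 0.07 and 0.12 and Defb8 was listed at 0, and Cnot6l-/- was higher in each (adjusted p = 6.6e-11, 1e-10 and 9.5e-10). Bfsp1 was at 0.05 and 0.04 in the group labelled Btg4-/- (difference -0.04, adjusted p = 0.91), Btn1a1 at 0.03 and 0.05 (-0.01, adjusted p = 0.99) and Ng23 at 1.32 and 0.84 (0.07, adjusted p = 0.83). Rnaset2b, a ribonuclease T2 gene with a near-identical copy, was at 1.02 and 0.94 in WT, 19.1 and 21.3 in Cnot6l-/- and 16.5 and 20.1 in the group labelled Btg4-/- (difference between the last 2 of 0.14, adjusted p = 0.64). Iqcf1, listed at 0 in WT, was at 7.21 and 21.1 FPKM in the group labelled Btg4-/- and did not pass against Cnot6l-/- (difference 0.78, adjusted p = 0.12). Lypd3 and Per3 were also high in both groups, and their differences did not pass the test (adjusted p = 0.42 and 0.39).

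Few genes that carry out deadenylation and decay were called; with 9.38% of all 10176 genes called, and fewer at high levels, lists this short would hold few calls in any case. Of 17 CCR4-NOT and BTG/Tob genes Cnot6l alone was called, and the median was -0.12 against -0.02 over all genes. None of 9 other deadenylase genes was called by limma (1 at an unadjusted p under 0.05), none of 18 genes for decay recruiters such as Pum2 and Ythdf3 (0 unadjusted) and none of 20 for decapping (2 unadjusted). The 95% interval of a single gene's difference reached a median of 0.68, 0.62, 0.58 and 0.75 log2 units to either side in these 4 lists, so smaller changes may not have been called. Of 18 exosome and uridylation genes, Dis3l, a catalytic subunit of the cytoplasmic exosome, was lower at 30 and 23.8 FPKM in WT against 8.15 and 8.61 (-1.57 ± 0.25, adjusted p = 0.00036). Of 25 poly(A) binding and polyadenylation genes, Cpeb4 was lower at 0.91 and 1.15 against 0.15 and 0.22 (-0.77 ± 0.20, adjusted p = 0.018). The Cpeb4 call was lost without WT replicate 2 (adjusted p = 0.1), Cnot6l-/- replicate 1 (0.098) or replicate 2 (0.067). Pabpn1l, the oocyte poly(A) binding protein gene, was at 484 and 415 against 218 and 278 and did not pass (-0.86, adjusted p = 0.17).

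Calls were also few among oocyte and housekeeping genes. None was called of 57 oocyte-specific and maternal-effect genes (2 at an unadjusted p under 0.05), 17 genes for mRNA storage proteins (0), 59 spindle genes (1), 83 ribosomal protein genes (1), 34 proteasome genes (1), 49 translation factor genes (2), 57 DNA replication and repair genes (2), 46 DNA methylation and chromatin genes (1) and 8 zygotic genome activation genes (1). Of 65 meiotic cell cycle regulators Aurkc alone was called, at 117 and 86.2 FPKM in WT against 337 and 292 (1.63 ± 0.43, adjusted p = 0.021); without WT replicate 2 its adjusted p was 0.14, without Cnot6l-/- replicate 1 it was 0.12 and without replicate 2 it was 0.078. Of 78 oxidative phosphorylation genes the complex III gene Uqcrc1 was higher, at 5.82 and 8.43 against 13.2 and 19.5 (1.09, adjusted p = 0.011), which did not pass without WT replicate 1 (adjusted p = 0.13) or Cnot6l-/- replicate 2 (adjusted p = 0.16). Of 53 core splicing genes Cdc5l alone was called. In all 28 lists together, 14 of 851 genes were higher and 13 lower (3.17% in either direction), against 623 and 304 of the 9325 genes in no list (9.94%); levels were not matched between them.

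Lipid and lysosomal genes were called about as often as genes overall (9.38% in either direction), but with some large differences. Of 27 lipid droplet and triglyceride genes 3 were lower: Pnpla3, the glycerol-3-phosphate acyltransferase gene Agpat9 (11.6 and 10.7 FPKM in WT against 0.38 and 0.35; -3.15 ± 0.19, adjusted p = 4.7e-09) and the fatty acid synthase gene Fasn (1.79 and 2.3 against 0.21 and 0.32; -1.26 ± 0.15, adjusted p = 1.9e-05). The median of this list was 0.03, and no other member was called. Of 31 lysosomal genes, Manba, the legumain gene Lgmn and the hexosaminidase gene Hexa were lower, and Hgsnat was higher. Hgsnat, an acetyltransferase of heparan sulfate breakdown, was at 0.97 and 0.91 FPKM in WT against 4.35 and 6.31 in Cnot6l-/- (1.69 ± 0.15, adjusted p = 4.9e-07). Lgmn was at 37.9 and 31.4 in WT against 15.2 and 17.3 (-1.04, adjusted p = 0.018), and Hexa differed by -0.46 near 1 FPKM (adjusted p = 0.016). The Lgmn call was lost without WT replicate 1 (adjusted p = 0.12) or either knockout library (0.11 and 0.058). The Hexa call was lost without either WT library (adjusted p = 0.056 and 0.051) or Cnot6l-/- replicate 2 (0.19).

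Of 16 imprinted genes 4 were higher and 1 lower, all at low levels; 13.8% of all genes at 1 to 2 FPKM and 12.8% at 2 to 5 FPKM were called in either direction. The noncoding RNA gene Meg3 was at 1.2 and 1.25 FPKM in WT and 2.86 and 3.97 in Cnot6l-/- (0.98 ± 0.18, adjusted p = 0.001), and the transporter gene Slc22a18 at 0.33 and 0.15 against 1.76 and 2.04 (1.23 ± 0.14, adjusted p = 7.2e-06). Impact was higher by 0.73 (adjusted p = 0.03) and Airn by 0.81 (adjusted p = 0.035), while Mcts2 was lower by a log2 difference of -0.66 (adjusted p = 0.0099). Airn is antisense to Igf2r and Mcts2 resembles Mcts1, so reads of these partners could be counted for them. Impact was no longer called without WT replicate 2 or Cnot6l-/- replicate 2 (adjusted p = 0.2 and 0.28), Airn without WT replicate 1 or either knockout library (0.3, 0.23 and 0.059), and Mcts2 without WT replicate 2 or Cnot6l-/- replicate 1 (0.075 and 0.063).

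Over all 10176 genes 9.38% were called in either direction, and the short lists that follow were not tested against this share. Of 22 p53 and apoptosis genes the p53 target gene Aen alone was called, at 0.88 and 1.13 against 4.29 and 4.35 (1.41 ± 0.15, adjusted p = 6.1e-06). Of 17 stress genes Chac1 and Atf3 were higher (0.89 and 0.75; adjusted p = 0.014 and 0.049). Of 11 interferon response genes the exonuclease gene Isg20 was lower, at 8.98 and 8.23 against 0.7 and 0.36 (-2.66 ± 0.20, adjusted p = 5.5e-08), and the tetherin gene Bst2 was higher, at 9.47 and 8.19 against 25 and 28.9 (1.51 ± 0.39, adjusted p = 0.019). The calls of Bst2 and Atf3 were lost whichever of the 4 libraries was left out (adjusted p from 0.059 to 0.12 and from 0.062 to 0.31), and that of Chac1 without WT replicate 1 (0.14) or Cnot6l-/- replicate 2 (0.16).

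**Figure D4:**
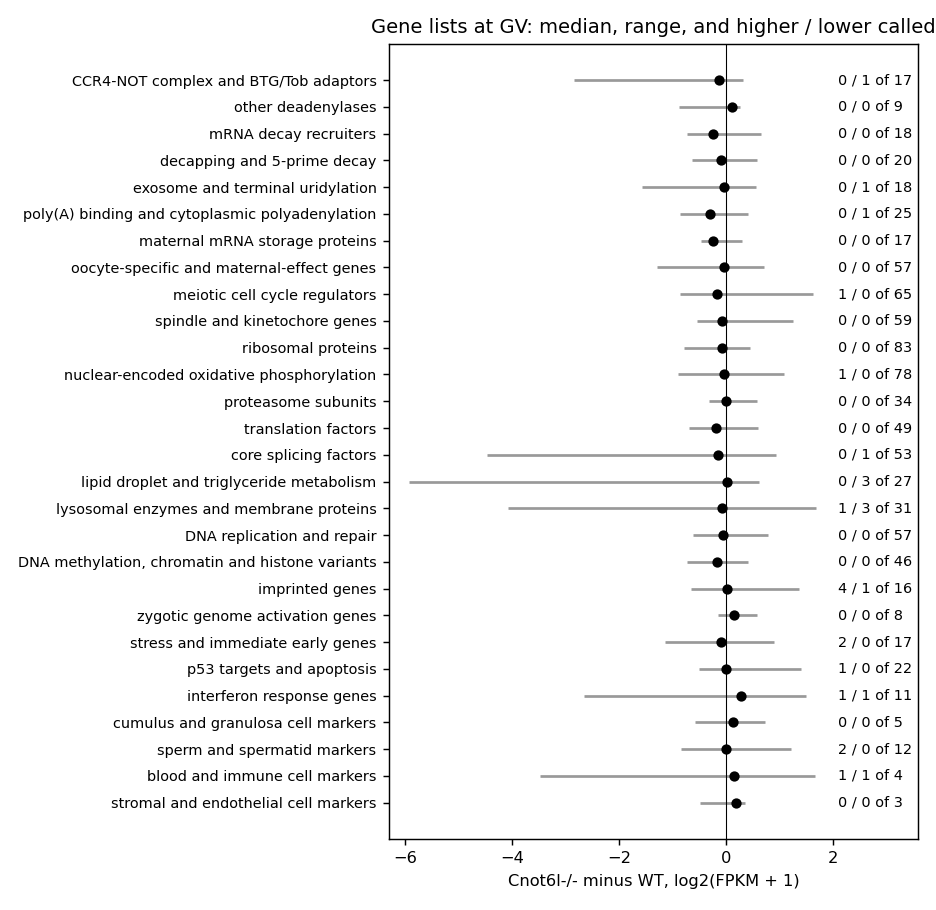
For each of the 28 gene lists the point is the median and the line the range of its members' log2(FPKM + 1) differences, Cnot6l-/- minus WT; numbers at the right give members higher / lower of those measured. Medians lie between -0.29 and 0.27, and long lines come from single genes such as Pnpla3 at -5.92 and Cdc5l at -4.46.

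Markers of other cell types were mixed: many were at or near 0, while C1qb, H2-Aa and Ldhc were well above and differed with genotype. Cyp19a1 and Prm2 were also well above 0, and higher in both knockout libraries than in both WT libraries. With 9.38% of all 10176 genes called in either direction, single calls in marker lists this short say little about a list. Of 5 cumulus and granulosa cell markers none was called (1 at an unadjusted p under 0.05), and their list summed to 61.7 and 46.5 FPKM in WT and 66.8 and 60.1 in Cnot6l-/-. Cyp19a1 was at 10.7 and 10.4 FPKM in WT against 19.4 and 16.9 in Cnot6l-/-. Of 12 sperm markers Ldhc and Odf1 were higher, and the list summed to 86.4 and 90.5 against 109 and 137 FPKM. Tnp1 was at 0 in all 4 libraries, whereas Prm2 was at 8.68 and 11.7 FPKM in WT against 16.4 and 28.9 in Cnot6l-/-. Ldhc was at 21.4 and 18.5 against 44.3 and 50.7 (1.21, adjusted p = 0.038) and lost its call whichever library was left out (adjusted p from 0.088 to 0.19), as Odf1 did without WT replicate 1 or either knockout library (0.31, 0.094 and 0.21). Of 4 blood and immune markers C1qb was higher, at 18.3 and 24.6 against 62.6 and 76.6 FPKM (1.66 ± 0.31, adjusted p = 0.0015). H2-Aa, the α chain of an MHC class II molecule, was lower, at 78 and 67.5 against 7.61 and 4.11 (-3.47 ± 0.39, adjusted p = 9.5e-06). The immune list summed to 98.7 and 94.7 in WT and 73.1 and 83.8 in Cnot6l-/-; Cd74, Hba-a1 and Hbb-b1 were at 0 in all 4 libraries and Ptprc and the β chain gene H2-Ab1 at 0.08 or below. None of 3 stromal and endothelial markers was called (1 unadjusted), and their list summed to 8.61 and 7.35 against 8.76 and 7.39. Whether other cells took part in these differences was not tested. In bulk libraries, fewer cells of a type and less RNA per cell cannot be told apart.

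The genes called at GV were then followed in libraries of other oocytes and zygotes at MI, MII and the zygote stage. MI oocytes had 8 h of culture and MII oocytes a longer culture, while zygotes were timed by hours after the hormone hCG. Of the 317 genes lower at GV, 90 (28.4%) were also lower at MI, 54 (17%) at MII and 20 (6.31%) in zygotes, where 1.3%, 0.671% and 0.413% of all genes tested were lower. Of the 637 higher at GV, 598 (93.9%) were higher at MI, 554 (87%) at MII and 145 (22.8%) in zygotes, where the shares over all genes were 60.3%, 44.3% and 8%. Over all genes tested the median difference was 0.87 at MI, 0.56 at MII and 0.18 in zygotes on the deposited scale, and of the genes lower at GV 59 (18.6%) were higher at MI.

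**Figure D5:**
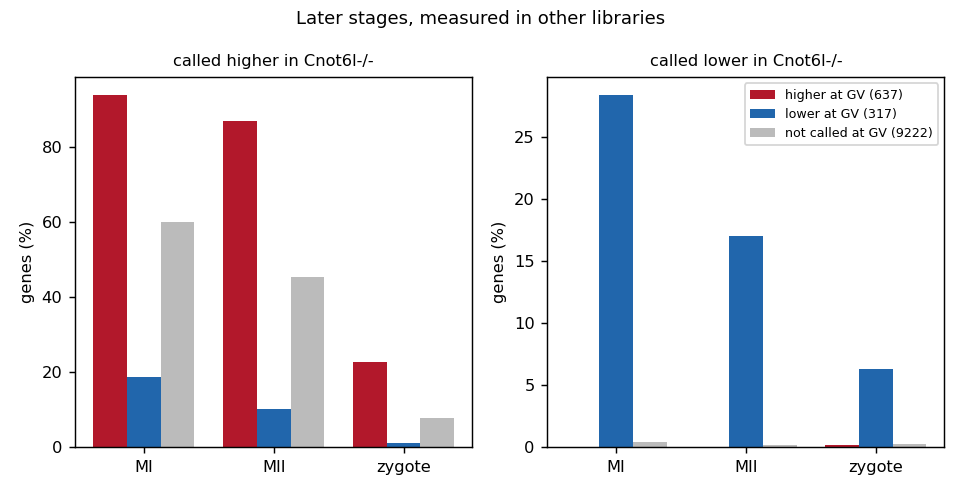
Bars give the percent of genes called higher (left) or lower (right) in Cnot6l-/- than WT at MI, MII and in zygotes, for genes higher (red, 637), lower (blue, 317) or not called (grey, 9222) at GV. The blue bars on the right, 28.4%, 17% and 6.31%, stand over grey bars of 0.4%, 0.12% and 0.24%.

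Just 13 genes (0.119% of those tested) were lower in Cnot6l-/- at MI, MII and in zygotes alike, and all 13 were lower at GV too. They were Pnpla3, Stk32a, Cdc5l, Manba, Gsto2, Ccdc109b, Hormad1, Btla, Bcat2, Pxdn, Bicc1, Rrs1 and Dclk1. Pnpla3 differed by -5.92 at GV, -5.29 at MI, -4.09 at MII and -3.75 in zygotes (adjusted p from 1.6e-10 to 5e-07). Cdc5l differed by -4.46, -1.45, -3.52 and -3.33 (adjusted p from 5.1e-08 to 0.0009). Bcat2, the mitochondrial branched-chain aminotransferase gene, was at 33.2 and 46.6 FPKM in WT GV oocytes against 4.65 and 7.1 (-2.58 ± 0.29, adjusted p = 1e-05), and differed by -3.17, -1.61 and -2.09 at the later stages. The RNA-binding protein gene Bicc1 was at 4.87 and 5.14 against 0.46 and 0.47 (-2.03 ± 0.19, adjusted p = 1.3e-06).

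In the other direction 141 genes (22.1% of the 637) were higher at GV and at all 3 later stages, and 532 of all genes tested (4.89%) were higher at the 3 later stages. Ptpro differed by 3.42, 2.38, 2.89 and 2.23 from GV to zygote, Defb8 was listed at 0 in WT and higher at each stage (adjusted p from 7.1e-10 to 5e-07), and Aurkc differed by 1.63, 2.12, 2.37 and 1.99. Some GV differences were not called later. Bfsp1 differed by -4.47 at GV and -3.09 at MI, and by -0.17 at MII (adjusted p = 0.5). By MII the WT libraries were themselves at 0.07 and 0.2 FPKM, and the Cnot6l-/- libraries at 0.01 and 0. Trim15 was at 127 and 138 FPKM in WT against 13.2 and 12.6 at GV (-3.26 ± 0.33, adjusted p = 2.6e-06). At MI it was higher in Cnot6l-/- by 0.998 (adjusted p = 0.014), near the median of 0.87 over all genes tested at that stage. Il17b, a cytokine gene, was at 70.4 and 106 against 5.46 and 11.5 at GV (-3.29 ± 0.33, adjusted p = 2.2e-06) and was not called at MI (-0.46, adjusted p = 0.24). Tested over all genes, the GV difference was above the mean later difference for 1.04% and below it for 32.3%.

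Genes near the targeted locus were examined by position. Of 5 measured genes within 1 Mb of Cnot6l, E330014E10Rik was higher, and of 42 within 5 Mb 5 were higher and 1 lower (14.3%, against 9.38% of all 10176). Besides E330014E10Rik the higher ones were Hpse, the heparanase gene, at 7.96 and 8.85 FPKM against 18.7 and 26.1 (1.30, adjusted p = 0.0092), Antxr2, Naaa and Gm3139, and the lower one was Agpat9. In the group labelled Btg4-/-, E330014E10Rik (1.62), Antxr2 (0.91) and Agpat9 (-3.29) differed from WT in the same direction (limma adjusted p = 0.00011, 0.039 and 7.9e-09). Hpse (0.35), Gm3139 (0.56) and Naaa (-0.08) did not pass there (adjusted p = 0.54, 0.12 and 0.86). Over all 42 genes the median log2 difference, Cnot6l-/- minus WT, was -0.06.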

How the data were processed

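RNA was measured with Smart-Seq2 and a Tn5 transposase in 24 libraries, 2 in each of 12 groups, per the labels' protocols. Bases were called with CASAVA 1.8 and TopHat2 2.0.11, Bowtie2 2.1.0, Cufflinks 2.2.1 and the mm9 build were used, per the submitters' processing notes. The authors deposited FPKM; the sources used here do not give how libraries were scaled. Read depth is unknown, and the replicate spread alone sets the precision.

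Tests covered the 10884 genes that averaged 1 FPKM or more in any group. limma 3.58.1 (R 4.3.3; lmFit, eBayes with a trend) was run on log2(FPKM + 1), 1 mean per group over all 24 libraries, 12 residual degrees of freedom, two-sided, with Benjamini-Hochberg adjustment; an adjusted p under 0.05 was called. The pseudocount understates changes of low genes. On simulated data 0, 15, 40 and 46 of 50 genes changed by 0.5, 1, 2 and 3 log2 units were called, and 10 of 10684 unchanged genes. The changed genes were drawn only from genes well above the filter in WT GV oocytes, and the simulated noise was independent between libraries. These rates therefore do not describe low genes or libraries that deviate together.

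Named genes are the 20 highest and 20 lowest differences among called genes of at least 10 FPKM in the higher group, without library overlap or predicted or small RNA symbols; the extremes and called members of 28 gene lists; and Cnot6l, Cnot6, Cnot7, Cnot8 and Btg4. 1 item is not reported here. The text gives a subset, and other genes were named after their values were seen. The members, lists and rules were chosen with earlier results of these data known. Transcript lengths come from gencode vM1 and upstream bases from the mm9 genome. Tables of single libraries were left out because some of their lines repeat the joint table. MI columns, numbered unlike their titles, were assigned to groups only. Alternatives were another pseudocount, filters, scalings, library subsets, a replicate block, no trend and leaving out each library.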

Additional observations from a re-analysis of the deposited data

Results flagged for a closer look

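For 27 of the 39 genes reported with the largest GV differences, the Cnot6l-/- minus WT difference at GV departed from the mean of the differences at MI, MII and zygote (interaction contrast in limma, adjusted p under 0.05). These genes were chosen for extreme GV differences, and the contrast uses the same GV values, so the choice favours a larger difference at GV and the count is a description. Over all genes tested 1.04% had a GV difference above the later mean and 32.3% below it. Values below are the GV difference minus the mean later difference, on the log2(FPKM + 1) scale.

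In 9 genes that were higher in Cnot6l-/- the difference was larger at GV. The excess was 2.28 for Cyp2c53-ps, 3.08 for Iqcf1, 1.08 for Defb8 and 1.55 for Olfr878. It was 0.93 for Ptpro, 1.51 for Rnaset2b, 0.89 for Fam57a, 1.64 for Fbxo16 and 1.06 for Ocm.

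In 18 genes that were lower the difference was further below 0 at GV. It was -1.55 for Pnpla3, -3.87 for Dcpp1, -3.82 for Stk32a, -3.98 for Dcpp2 and -3.21 for Bfsp1. It was -1.70 for Cdc5l, -1.02 for Manba, -2.45 for Gsto2, -2.79 for Ccnb1ip1, -1.25 for H2-Aa and -2.17 for Btn1a1. It was -3.06 for Tceal8, -3.36 for Il17b, -3.45 for Trim15, -2.60 for Tmem87a, -2.41 for Agpat9, -1.79 for Ccdc109b and -2.88 for Ng23. Iqcf1 and Defb8 were listed at 0 in WT and Dcpp1 in Cnot6l-/- GV libraries, so their sizes depend on the pseudocount. In Dcpp1, Dcpp2, Stk32a, Bfsp1, Gsto2, Btn1a1 and Agpat9 the WT level itself fell after GV, while Cnot6l-/- stayed under 0.5 FPKM. Dcpp1 in WT went from 43.6 and 38.3 FPKM at GV to 1.7 and 1.03 at MII. A low WT level leaves little room for a later difference below 0 on this scale.

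After median-ratio scaling over all libraries 17 of the 27 still passed. Defb8, Olfr878, Ptpro, Fam57a, Ocm, Pnpla3, Cdc5l, Manba, H2-Aa and Ccdc109b did not. The value changed sign for Pnpla3 (0.21) and Manba (0.61) and was -0.26 for Cdc5l, while the other genes of the 27 kept their sign. The direction given above for Pnpla3 and Manba thus depends on the scaling.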

How the results depend on the processing

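The count of genes higher in Cnot6l-/- was 660 over all genes tested and became 354 with a pseudocount of 0.1, 1008 with no filter, 299 with a filter of 5 FPKM, 116 with only the 4 GV libraries compared and 194 with the 6 GV libraries. The count lower was 329 and became 215, 604, 141, 88 and 112 under the same settings, and 203 after median-ratio scaling over all libraries. Leaving out each library gave 448 to 641 higher and 231 to 438 lower. The Cnot6l log2 difference of -2.84 ranged from -2.05 to -3.63 with a library left out. It no longer passed without WT replicate 1 (-2.05, adjusted p = 0.12), without Cnot6l-/- replicate 2 (-2.65, adjusted p = 0.069) or with only the 4 libraries (-2.84, adjusted p = 0.081). Against the group labelled Btg4-/-, 1987 genes differed, 657 with a pseudocount of 0.1 and 896 after scaling over all libraries. The GV difference departed from the later ones in 3626 genes, and in 654 after this scaling. Of 585 values for 39 of the largest differences under alternatives 581 kept their direction and call, and 194 of 302 for the 21 other called list members, and none of these genes changed direction; other named genes were not run under the alternatives, apart from Cnot6l. The calls of Atf3, Airn, Odf1 and Ldhc were lost in 10 or more settings. With the replicate number as a block and without the MI libraries 724 genes were higher and 366 lower, against 565 and 273 without the block. Same-numbered GV libraries deviated together (correlation 0.52), but no label says that the numbers pair samples. Read depth is unknown, so the precision of low genes rests on the spread between replicate libraries. With all libraries in the fit this spread was estimated over all groups, while each GV mean rested on 2 libraries.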

Other observations

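Called genes were unevenly spread over the chromosomes, a pattern seen in the data and not tested. On chromosome 17, 44 of 503 genes were higher and 29 lower in Cnot6l-/- GV oocytes (14.5%), the highest share among the autosomes and X; chromosome 10 had the lowest, 4.61%, and chromosome 5, with Cnot6l, had 6.19%. Over the first 50 Mb of chromosome 17, 61 of 363 genes were called (16.8%), against 12 of 140 (8.57%) beyond, where 6 of 33 (18.2%) lay between 70 and 80 Mb. The labels give C57BL/6 for WT, Cnot6l-/- and Btg4-/- alike, and the genetic background of the libraries at these genes was not tested.

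Between 30 and 40 Mb, which holds the MHC, 7 genes were higher and 11 lower of 106 (17%), no larger a share than the 10 of 53 (18.9%) between 40 and 50 Mb. Beside H2-Aa, Trim15 and Ng23, the nonclassical class I gene H2-T23 was at 1.71 and 1.61 FPKM in WT, 15.4 and 11.1 in Cnot6l-/- and 13.1 and 14.1 in the group labelled Btg4-/- (Cnot6l-/- minus WT 2.40 ± 0.23 SE, adjusted p = 1.5e-06). H2-Oa, a class II chain gene, was at 8.94 and 10.5, 19.9 and 26.1, and 17.5 and 28 FPKM in the same order (1.16 ± 0.24, adjusted p = 0.004). Ppp1r10, a phosphatase-1 regulatory subunit gene, was at 12.7 and 12.9, 3.89 and 5.16, and 7.97 and 5.9 FPKM (-1.33 ± 0.26, adjusted p = 0.0018). Trim15 was at 15 and 16.2 FPKM and H2-Aa at 5.78 and 9.85 in the group labelled Btg4-/-, below both WT libraries in each.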
